A study of Mus musculus with 25 samples.

Results

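The transcriptomes of resting mouse regulatory T cells (Treg) lacking both p65 and c-Rel (DKO Treg) were compared with those of resting Treg lacking p65 alone (p65KO Treg), so that the groups differ in whether c-Rel is present. The members were 5 libraries of the 25 in the study, chosen by their labels: DKO Treg 1 and 2 and p65KO Treg 1, 2 and 3. All came from spleen and lymph node of C57BL/6 mice, none was stimulated, and both groups carried the p65 knockout. Beside them stood 4 WT Treg and 2 c-RelKO Treg libraries, also resting, in which c-Rel loss can be read with p65 present. There were also 1 p65KO and 2 DKO Treg libraries kept for 3 h with antibodies to CD3 and CD28 and with IL-2. The labels leave out the exons deleted, the driver of any Cre recombinase, the ages of the mice and whether cells were pooled. They also leave out whether replicates are separate animals. Sex genes, given below, show that p65KO Treg 2 came from other animals than p65KO Treg 1 and 3. P-values measure the spread between libraries of the same group, which may still be technical in part. This spread was pooled over 21 libraries in 10 groups, resting and stimulated conventional T cells (Tconv) among them.

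NF-kB is a family of dimeric transcription factors held in the cytoplasm by IkB proteins until signals such as T cell receptor engagement release them. Both p65 (gene Rela) and c-Rel (gene Rel) carry a transactivation domain and can pair with p50, the product of Nfkb1. In the Treg lineage c-Rel is known for binding an enhancer of Foxp3, the gene of the transcription factor that defines these cells, and p65 and c-Rel can bind the same kind of DNA sequence.

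Values are FPKM, fragments per kilobase of transcript, scaled to the mapped fragments of the library, and differences are log2 differences of log2(FPKM + 1) with their standard error. That scale understates the change of genes with low FPKM. A gene is named called, higher or lower where its limma adjusted p was under 0.05. Implied depth was 19.7 to 47.8 M fragments (M, 1e6) in the 5 libraries, an estimate from the deposited confidence bounds. In these bulk samples fewer cells of a type and less RNA per cell cannot be told apart.

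The libraries stood apart in several ways. Library numbers in the labels form 4 runs. DKO Treg 1 lay in the third run, DKO Treg 2 and p65KO Treg 3 in the fourth, p65KO Treg 1 in the first and p65KO Treg 2 in the second, so DKO Treg 2 against p65KO Treg 3 is the one pair within a run. Xist, expressed from the inactive X of females, was 22.6 and 36.4 FPKM in DKO Treg 1 and 2 and 64.6 in p65KO Treg 2. It was 0.108 and 0.00783 in p65KO Treg 1 and 3, where the Y-linked gene Ddx3y was 47.7 and 78.5. The same-run pair therefore differed in sex, and the one pair of groups matched in sex (p65KO Treg 2 against DKO) came from different runs. T cell genes were present in all 5 (Cd3e 441, 334 and 273 FPKM in p65KO Treg 1 to 3, 230.0 and 190.2 in DKO Treg 1 and 2). Transcripts of the neutrophil gene S100a8 reached 5.23, 27.8 and 336 FPKM in p65KO Treg 1 to 3 and 14.7 and 17.2 in DKO Treg. Transcripts of the eosinophil granule gene Prg2 reached 0.574 and 77.5 FPKM in DKO Treg 1 and 2 and 0.0658, 0.152 and 1.46 in p65KO Treg. The libraries of the first run, p65KO Treg 1 and WT Treg 1, had less Rel than the other libraries that carry c-Rel (values below). They stood apart in other genes too, of which 3 were chosen after their values were seen. Tnfaip3 was 40.3 FPKM in p65KO Treg 1 against 540 and 247 in p65KO Treg 2 and 3, and 50.5 in WT Treg 1. Gadd45b was 28 FPKM against 165 and 225, and 21.9 in WT Treg 1. Ltb went the other way, at 683 FPKM against 290 and 313, and 739 in WT Treg 1.

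DKO and p65KO Treg differed in 2110 of 11535 genes tested (18.3%), of which 1010 were higher (8.76%) and 1100 lower (9.54%) in DKO Treg. At least 2-fold differences were found for 519 higher and 609 lower genes. The 2 DKO libraries did not overlap the 3 p65KO libraries in 4903 genes (42.5%), and 2107 of these were among the called genes. No called gene was on the Y chromosome. The Y-linked gene Ddx3y was 0.0216 FPKM in p65KO Treg 2, close to 0 and 0.0188 in DKO Treg 1 and 2. With 1 p65KO library near the DKO level, the lack of Y calls does not test the part of sex. With the run as a block the count was 5398 (3042 higher and 2356 lower), 2059 of them called with the same sign in both fits, and it was 972 without DKO Treg 1, 952 without DKO Treg 2 and 1406 without p65KO Treg 2. A fit of the 5 compared libraries alone called 355 genes. The plot of single genes by library shows the 14 largest rises and falls among called genes that did not overlap and reached a group mean of 5 FPKM, predicted genes and small RNAs aside.

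**Figure D1:**
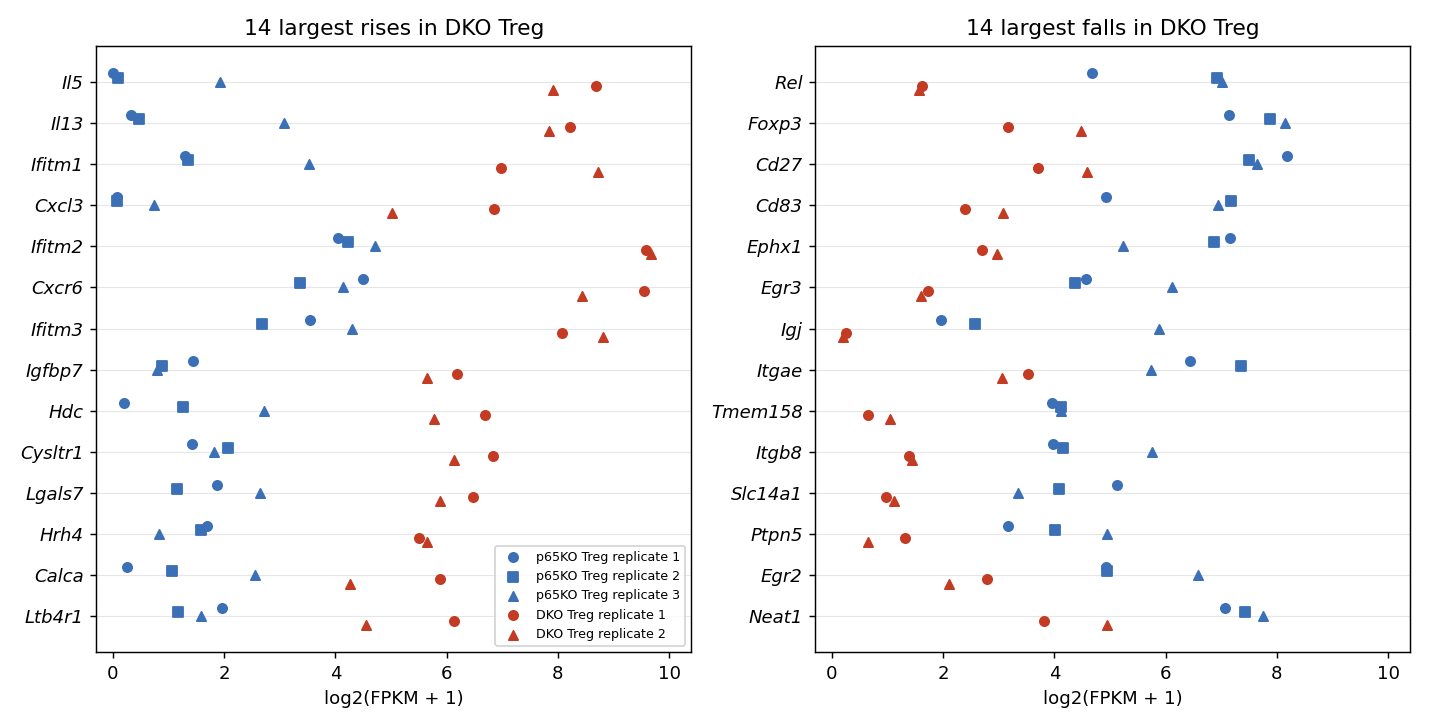
Levels, as log2(FPKM + 1) on the horizontal axis, of 14 genes with the largest rises (left) and 14 with the largest falls (right) in resting DKO Treg, with 1 point per library; colour marks the genotype and shape the replicate. In every row the 2 red DKO points lie on one side of the 3 blue p65KO points, and p65KO Treg 3 is the p65KO library closest to DKO for Il5, Il13 and Ifitm1.

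The gene of c-Rel itself was looked at first. Rel (chr11:23641729-23670970, mm9) was 24.6, 120.3 and 128 FPKM in p65KO Treg 1, 2 and 3 and 2.06 and 1.96 in DKO Treg 1 and 2. All DKO values were low and none overlapped, although p65KO Treg 1 lay well below the other p65KO libraries. The log2 difference was -4.61 ± 0.81 (limma adjusted p = 0.0017). Rela, the gene of p65, which both groups lack by label, was 58, 69.3 and 79.8 FPKM in p65KO Treg and 76.1 and 56.3 in DKO Treg. These values overlapped and the difference of -0.06 ± 0.24 was not called (adjusted p = 0.89). Transcript of Rela was thus present in every library, and gene-level FPKM covers all exons, so it does not check the p65 label.

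Of the 5 NF-kB subunit genes Rel alone was called, and the median difference was -0.06, close to -0.02 over all genes tested. Nfkb1 was 110.4, 129 and 305 FPKM in p65KO Treg and 379 and 249 in DKO Treg, a difference of 0.91 ± 0.52 (adjusted p = 0.25). Nfkb2 differed by -0.14 ± 0.48 and Relb by 0.25 ± 0.37, neither called; the sign of Rela, Nfkb1, Nfkb2 and Relb each turned under some alternative given with the processing. Of 12 inhibitors and feedback genes 2 were lower and none higher (median -0.51). Nfkbie, which encodes IkB-epsilon, differed by -1.17 ± 0.36, and Tnip2, a partner of the deubiquitinase A20, by -0.81 ± 0.27. Both calls were close to the threshold: the adjusted p for Nfkbie was 0.054 without DKO Treg 1, 0.32 without DKO Treg 2 and 0.14 without p65KO Treg 2, and for Tnip2 0.29 without DKO Treg 1, 0.11 without DKO Treg 2, 0.14 without p65KO Treg 2 and 0.1 without p65KO Treg 3. Nfkbia, the gene of IkB-alpha, was 175, 332 and 319 FPKM in p65KO Treg and 162 and 128 in DKO Treg, below every p65KO library in DKO, with a difference of -0.87 ± 0.48 that was not called (adjusted p = 0.23). In a fit with the run block its difference was -1.51 and was called (adjusted p = 4.7e-04), and 6 of the 12 were lower and 1 higher. Without both libraries of the first run 6 of the 12 were lower and none higher, in a fit that called 1565 genes lower.

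Promoter sequence was read for genes that differed and hold a kappa-B motif, the sequence to which NF-kB dimers bind. Motifs searched were GGGANNTTCC and GGGGNNTTCC on both strands, in windows from 250 bases before to 50 after each RefSeq start (GRCm38.p6, a later build than the mm9 of the expression files). A symbol match gave 11658 windows for 9248 of the 11535 genes tested, and 3.22% of windows held a motif. The share was 3.28% of 975 windows of genes higher in DKO and 2.66% of 1166 windows of genes lower in DKO, so neither stood far from the background. Among the 14 largest rises, 12 had a window and 2 of these, Cxcl3 and Ifitm3, held a motif. Among the 14 largest falls, 8 had a window and Rel held one. Other called genes with a motif among those named were Nfkbie and Ccr6, both lower, and Gbp2, higher. The 4 windows below are those of Rel, of these 2 risen genes and, as a further fallen gene chosen after its values were seen, of the chemokine receptor Ccr6, whose other RefSeq start holds no motif. Each reads 5′ to 3′ along the gene's strand and capitals mark the motif. They lie at chr11:23770920-23771219 on the minus strand for Rel, chr5:90785851-90786150 on the plus strand for Cxcl3, chr7:141010695-141010994 on the minus strand for Ifitm3 and chr17:8242276-8242575 on the plus strand for Ccr6.
Rel: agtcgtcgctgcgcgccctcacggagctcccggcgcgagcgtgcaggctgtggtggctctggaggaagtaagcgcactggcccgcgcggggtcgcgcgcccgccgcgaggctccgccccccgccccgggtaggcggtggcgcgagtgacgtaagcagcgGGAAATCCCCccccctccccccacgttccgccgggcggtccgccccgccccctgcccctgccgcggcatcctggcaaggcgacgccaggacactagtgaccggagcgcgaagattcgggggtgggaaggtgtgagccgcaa
Cxcl3: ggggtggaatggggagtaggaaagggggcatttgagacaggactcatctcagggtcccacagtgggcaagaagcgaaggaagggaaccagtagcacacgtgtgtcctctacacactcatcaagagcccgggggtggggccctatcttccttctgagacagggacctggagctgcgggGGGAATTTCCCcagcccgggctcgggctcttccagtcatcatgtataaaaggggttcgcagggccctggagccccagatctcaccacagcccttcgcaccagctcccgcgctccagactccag
Ifitm3: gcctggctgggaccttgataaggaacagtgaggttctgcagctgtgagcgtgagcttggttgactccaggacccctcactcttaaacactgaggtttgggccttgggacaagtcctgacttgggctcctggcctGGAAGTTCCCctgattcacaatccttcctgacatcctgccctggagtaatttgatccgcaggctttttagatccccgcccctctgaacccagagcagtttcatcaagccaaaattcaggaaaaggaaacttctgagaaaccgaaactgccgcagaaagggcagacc
Ccr6: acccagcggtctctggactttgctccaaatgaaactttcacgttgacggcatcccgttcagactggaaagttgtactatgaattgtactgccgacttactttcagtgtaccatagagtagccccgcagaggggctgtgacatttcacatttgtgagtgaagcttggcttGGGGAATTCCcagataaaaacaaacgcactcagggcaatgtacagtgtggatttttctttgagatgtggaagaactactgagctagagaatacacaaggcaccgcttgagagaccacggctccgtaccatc
Counted from the start site, the motif begins at base -91 in Rel, -73 in Cxcl3 (where another, overlapping match begins at -72), -116 in Ifitm3 and -81 in Ccr6. Rel is the gene that DKO Treg lack by label, so its fall says nothing about the motif. With Rel set aside, named called genes with a motif were higher (Cxcl3, Ifitm3 and Gbp2) or lower (Nfkbie and Ccr6) in DKO Treg. A match describes these letters and does not show binding.

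The gene that defines the lineage was among the largest falls. Foxp3 (chrX:7156802-7172369) was 139.7, 232 and 282 FPKM in p65KO Treg 1, 2 and 3 and 8.01 and 21.2 in DKO Treg 1 and 2. Both DKO libraries were far below every p65KO library. The log2 difference was -3.89 ± 0.45 (adjusted p = 1.0e-04), and -3.67 in the same-run pair. The libraries labelled DKO Treg thus held a low level of the gene that defines Treg. Il2ra, a chain of the high-affinity IL-2 receptor, was 459.7 and 454 FPKM in DKO and 192, 221 and 595 in p65KO Treg. Ctla4, an inhibitory receptor, was 259.9 and 388 against 310.1, 1286 and 826. Neither of the latter was called (adjusted p = 0.37 and 0.26).

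Of the 30 genes of the Treg core list 13 were lower in DKO Treg and none higher, with a median of -1.13. Ikzf2, the gene of the transcription factor Helios, was 146, 111 and 156 FPKM in p65KO Treg and 19.8 and 27.4 in DKO Treg. The groups were far apart and the difference of -2.50 ± 0.18 had the smallest p of the list (adjusted p = 1.8e-06). Folr4, a folate receptor family member on the Treg surface, was 522, 389 and 241 against 68.1 and 71 FPKM (-2.38 ± 0.36). Itgae encodes CD103, which binds E-cadherin, and was 85.6, 162 and 52.4 against 10.5 and 7.33 FPKM (-3.22 ± 0.61). Among the others that were lower were Ikzf4, Gpr83, Swap70, Klrg1, Lad1 and Penk, named after their values were seen, and Lrrc32 and Itgb8, given with the TGF-beta genes. The other 17 were not called, Il2ra, Ctla4 and Tigit among them. The count of lower genes was 7 without DKO Treg 1, and 9, 11, 10 and 11 without DKO Treg 2 and p65KO Treg 1, 2 and 3. With the run as a block it was 19 lower and 5 higher.

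Genes of the TGF-beta pathway include the proteins that hold and release the latent cytokine on Treg. Lrrc32, which anchors latent TGF-beta, was 114, 516 and 494 FPKM in p65KO Treg and 28.1 and 50.5 in DKO Treg. Its difference was -3.00 ± 0.76, and the call was lost with an adjusted p of 0.13 without DKO Treg 1, 0.051 without DKO Treg 2 and 0.057 without p65KO Treg 2. Itgb8, a subunit of the integrin that activates latent TGF-beta, was 14.8, 16.7 and 52.8 against 1.62 and 1.72 FPKM, a difference of -3.21 ± 0.63. Receptor genes moved in opposite directions: Tgfbr1 was 47.3, 64.2 and 54.2 against 18.5 and 21.7 FPKM (-1.41 ± 0.21), and Tgfbr3, a co-receptor, was 2.81, 4.81 and 2.15 against 20.6 and 19.7 FPKM (2.36 ± 0.32). With the inhibitor Smad7 also lower, 4 of 14 genes fell and 1 rose (median -0.22). Without DKO Treg 2 or without p65KO Treg 2, 2 were lower.

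Early response genes of the T cell receptor were lower in resting DKO Treg in 9 of 24 cases and higher in 1, with a median of -1.36. Egr3 encodes a zinc finger transcription factor induced within an hour of receptor engagement. It was 22.7, 19.7 and 68.2 FPKM in p65KO Treg 1, 2 and 3 and 2.30 and 2.02 in DKO Treg. Its relative Egr2 (chr10:67000617-67004936) was 29.4, 29.6 and 94.7 against 5.86 and 3.32 FPKM. Both DKO libraries were low, and p65KO Treg 3 was the highest p65KO library for each gene. The differences were -3.36 ± 0.43 for Egr3 (adjusted p = 2.1e-04) and -3.03 ± 0.47 for Egr2 (adjusted p = 8.4e-04). Egr1 fell by a comparable amount (-2.65 ± 0.45), from 55.4, 49.8 and 178 to 16 and 8.58 FPKM. Zfp36, whose protein shortens the life of AU-rich mRNAs, was 128, 140.1 and 119.6 against 44.9 and 33.4 FPKM (-1.71 ± 0.24). The other lower genes were Nab2, a corepressor of EGR proteins, Jun, the MAP kinase phosphatases Dusp1 and Dusp2, and Cd5; Ier3 was the one higher, at 9.94 and 9.80 against 1.60, 1.25 and 4.19 FPKM. Without DKO Treg 2 the count was 5 lower and 1 higher, and with the run as a block 19 lower and 2 higher. Without both libraries of the first run 18 were lower and 1 higher.

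Among TNF receptor superfamily members, which take survival and costimulatory signals into NF-kB, 3 of 13 were lower and none higher (median -0.72). Cd27 (chr6:125182640-125187045) was 289, 180.2 and 199.6 FPKM in p65KO Treg and 12 and 22.9 in DKO Treg. The lowest p65KO library was well above the higher DKO library, and the difference was -3.64 ± 0.33 (adjusted p = 1.4e-05). Fas, the death receptor, differed by -1.68 ± 0.39 and Tnfrsf1b, TNF receptor 2, by -1.33 ± 0.33. The adjusted p was 0.13 without DKO Treg 1 for Fas and 0.15 without DKO Treg 2 for Tnfrsf1b. The run block gave 8 lower and 1 higher.

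Genes widely used as NF-kB readouts mostly did not pass. Cd83, a surface protein of activated lymphocytes, was among the largest falls: it was 29.5, 142 and 122 FPKM in p65KO Treg and 4.26 and 7.38 in DKO Treg, a difference of -3.62 ± 0.66 (adjusted p = 0.0023). Besides Cd83, Cd69 alone was lower among 15 surface and secreted genes (-1.82 ± 0.59), and its adjusted p was 0.12 without DKO Treg 1, 0.24 without DKO Treg 2, 0.15 without p65KO Treg 2 and 0.08 without p65KO Treg 3. The list's median was 0.24, and its sign was not stable: it was -0.57 in the same-run pair, -0.043 without DKO Treg 1 and -0.064 without p65KO Treg 2. Without p65KO Treg 3 the calls were 2 higher and 1 lower. Of 14 survival and adaptor genes 3 were lower and none higher (median -0.02). Bcl2, the anti-apoptotic protein, was 57.3, 58.2 and 69.98 against 22.5 and 40.1 FPKM (-1.01 ± 0.19). Birc2, an inhibitor of apoptosis and ubiquitin ligase, differed by -0.96 ± 0.21, and Traf1, a TNF receptor adaptor, by -1.22 ± 0.28 (adjusted p = 0.14 without DKO Treg 2). A fit with the run block called 6 of the 14 lower and 1 higher.

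Genes of naive and resting T cells were lower in 10 of 19 cases and higher in none, with a median of -1.03. Il6st, the signalling chain of the IL-6 receptor, was 69.3, 114 and 44.2 FPKM in p65KO Treg and 8.45 and 12.9 in DKO Treg, a difference of -2.64 ± 0.36. The quiescence factor Klf3 was 72.5, 40.3 and 26.9 against 14 and 14.7 FPKM (-1.52 ± 0.32), and Itga6, an integrin subunit, differed by -1.03 ± 0.23 (adjusted p = 0.11 without DKO Treg 1). Those lower also included Foxo1, Foxp1, Lef1, Il6ra, Actn1 and Ly6c1. Fewer were called with either DKO library left out, but the median kept its size. It was -1.06 without DKO Treg 1 and -1.22 without DKO Treg 2. The run block gave 14 lower and 1 higher.

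The largest rises of single genes were those of Il5 and Il13, cytokine genes of type 2 helper T cells. Il5, the growth factor of eosinophils (chr11:53534296-53538605), was 0, 0.0721 and 2.80 FPKM in p65KO Treg 1, 2 and 3 and 412 and 239 in DKO Treg 1 and 2. Il13, its neighbour in the type 2 cytokine cluster (chr11:53444825-53448204), was 0.249, 0.384 and 7.39 against 299 and 228 FPKM. In both genes p65KO Treg 3 was the highest p65KO library and still far below DKO. The differences were 7.62 ± 0.83 for Il5 (adjusted p = 5.7e-05) and 6.75 ± 0.94 for Il13 (adjusted p = 3.8e-04). Il9 was 0, 0.147 and 0.741 against 20.4 and 5.42 FPKM (3.22 ± 0.53), and Ccr4, a chemokine receptor of type 2 and regulatory T cells, was 39.8, 99.9 and 111 against 247 and 194 (1.51 ± 0.39; adjusted p = 0.13 without DKO Treg 1 and 0.057 without DKO Treg 2). These were the 4 type 2 genes called of 17, all upward, and the list's median was 0.48 (-0.19 in the same-run pair). The run block gave 4 higher and 6 lower, and without the libraries of run 1 4 were higher and 5 lower. Gata3, the type 2 lineage factor, was 47.4, 74.2 and 129 against 170.2 and 100.1 FPKM and was not called (adjusted p = 0.21).

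Receptors and enzymes of histamine and leukotriene signalling rose with them in 4 of 13 cases, and none fell (median -0.13). Hdc, which makes histamine from histidine, was 0.152, 1.39 and 5.57 FPKM in p65KO Treg and 103 and 53.6 in DKO Treg, a difference of 4.84 ± 0.59. Hrh4, a histamine receptor of leukocytes, was 2.24, 2.02 and 0.778 against 44.5 and 49 FPKM (4.20 ± 0.34). Cysltr1, a receptor of cysteinyl leukotrienes, was 1.67, 3.21 and 2.51 against 113 and 69.1 FPKM (4.71 ± 0.39). The leukotriene B4 receptor gene Ltb4r1 was 2.90, 1.25 and 2.00 against 69.4 and 22.4 FPKM (3.77 ± 0.48). None of the 4 overlapped between groups, which held for 2107 of the 2110 called genes, and the median of the list was below 0. Hdc is also a gene of mast cells and basophils. Their 11 markers summed to 7.94 and 17.4 FPKM in DKO Treg and to 1.07, 1.17 and 20.5 in p65KO Treg 1 to 3; Fcer1a was 0 and 0.0496 in DKO and 0.0506, 0 and 0.283 in p65KO Treg, and Cpa3 0.207 and 0.297 and 0.0332, 0 and 0.829. The part of such cells in the Hdc level was not tested. Of the 4 tested genes of that marker list 1 was higher (2 without p65KO Treg 3), the growth factor receptor Kit, at 5.33 and 5.95 against 0.324, 0.655 and 1.64 FPKM.

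The Ifitm genes, a cluster of interferon-inducible membrane proteins that restrict virus entry, were higher in 4 of the 5 tested, with a median of 4.93. Ifitm2 (chr7:148140738-148141860) was 15.5, 17.8 and 25.2 FPKM in p65KO Treg and 764 and 819 in DKO Treg. Its libraries were tight within each group, and the difference of 5.30 ± 0.19 had an adjusted p of 2.2e-09. Ifitm1 was 1.46, 1.55 and 10.5 against 126 and 421 FPKM (5.80 ± 0.75) and Ifitm3 10.7, 5.45 and 18.6 against 267 and 447 (4.93 ± 0.66). Ifitm5 was called at low level, 1.24 and 2.58 against 0, 0.191 and 0.0906 FPKM. These paralogs are alike in sequence, and how Cufflinks divided their reads is not recorded in the files. Interferon response genes at large did not move that way: 2 of 25 were higher and 2 lower, with a median of -0.27. Gbp2, an interferon-inducible GTPase, was 454 and 478 FPKM in DKO Treg against 90.8, 90.5 and 125 (2.20 ± 0.37), while Oas1a was lower (-1.84 ± 0.48; adjusted p = 0.17 without DKO Treg 2 and 0.064 without p65KO Treg 2). The calls of Igtp, higher by 0.95 ± 0.28, and Irf7 (-1.05 ± 0.34) were lost in several single-library omissions, with adjusted p of 0.1 without DKO Treg 1, 0.17 without DKO Treg 2 and 0.09 without p65KO Treg 2 for Igtp and 0.091 without DKO Treg 1, 0.28 without DKO Treg 2, 0.12 without p65KO Treg 1 and 0.12 without p65KO Treg 2 for Irf7.

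Of 21 type 1 and cytotoxic genes 5 rose and none fell (median 0.52). Cxcr6, a receptor of tissue-homing lymphocytes for the chemokine Cxcl16, was 21.5, 9.25 and 16.5 FPKM in p65KO Treg and 745 and 345 in DKO Treg, a difference of 5.0 ± 0.63 (adjusted p = 1.8e-04). Il18rap, a chain of the IL-18 receptor, differed by 1.65 ± 0.32 (adjusted p = 0.055 without DKO Treg 1), the protease Gzma by 2.99 ± 0.64 (adjusted p = 0.082 without DKO Treg 2) and the transcription factor Runx3 by 1.0 ± 0.25 (adjusted p = 0.16 without DKO Treg 2); Il12rb2 was the fifth. Without DKO Treg 2 the count was 2, and without p65KO Treg 2 there were 4 higher and 2 lower. Ifng was 9.61, 6.95 and 20.01 FPKM in p65KO Treg and 27.3 and 41.3 in DKO Treg, which did not overlap but were not called (adjusted p = 0.13). The neutrophil-attracting chemokine Cxcl3 was close to 0 in p65KO Treg (0.0515, 0.0595 and 0.662 FPKM) and 115 and 31.3 in DKO Treg (5.64 ± 0.52). Lgals7, which encodes a galectin, was 2.67, 1.23 and 5.23 against 87.7 and 58.2 FPKM (4.29 ± 0.41), and the secreted protein gene Igfbp7 1.70, 0.840 and 0.740 against 72.3 and 49.2 (4.88 ± 0.38). Calca, the gene of calcitonin and its related peptide, was 0.186, 1.09 and 4.91 against 58 and 18.2 FPKM (3.78 ± 0.99), and its call was lost with an adjusted p of 0.17 without DKO Treg 1, 0.052 without p65KO Treg 1 and 0.051 without p65KO Treg 2.

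Among the largest falls outside these lists, Ephx1, an epoxide hydrolase, was 141, 116 and 36.8 FPKM in p65KO Treg and 5.48 and 6.80 in DKO Treg (-3.59 ± 0.64). Tmem158, a membrane protein gene, was 14.5, 16.4 and 16.3 against 0.574 and 1.05 FPKM (-3.21 ± 0.23), nearly equal in all p65KO libraries and close to 1 or below in DKO. The urea transporter Slc14a1 (-3.14 ± 0.54) and the tyrosine phosphatase Ptpn5 (-3.05 ± 0.49) were 0.970 and 1.16 and 1.48 and 0.576 FPKM in the DKO libraries. Igj, the J chain of secreted immunoglobulin, was 2.90, 4.97 and 57.9 FPKM in p65KO Treg 1, 2 and 3 and 0.190 and 0.153 in DKO Treg. The highest value of Igj was in p65KO Treg 3, and which cells gave it was not tested. Its difference was -3.25 ± 1.06, and the adjusted p was 0.18 without DKO Treg 1, 0.19 without DKO Treg 2, 0.056 without p65KO Treg 2 and 0.12 without p65KO Treg 3.

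Of 24 cell cycle genes 19 rose and none fell (median 1.51). Aurka, a mitotic kinase, was 16, 7.80 and 15.4 FPKM in p65KO Treg and 56.1 and 79.97 in DKO Treg, a difference of 2.33 ± 0.36. Of the replication helicase subunits, Mcm3 was 67.6, 60.5 and 52.4 against 129 and 163 FPKM (1.27 ± 0.21), Mcm4 differed by 0.86 ± 0.15 and Mcm6 by 0.90 ± 0.13. DKO Treg 2 was the higher DKO library for Aurka and Mcm3, and p65KO Treg 2 the lowest p65KO library for Aurka. The count was 7 without DKO Treg 2 and 12 without p65KO Treg 2, and 24 with the run as a block. Mki67, the common proliferation marker, was 78.1, 30.04 and 36.4 against 86.7 and 163 FPKM and was not called (adjusted p = 0.11). Of 15 glycolysis genes 7 rose and none fell (median 0.74). Ldha, which makes lactate, was 389.7, 316 and 331 against 768 and 651 FPKM (1.04 ± 0.20), Pkm2, pyruvate kinase, differed by 0.84 ± 0.16, Aldoa, aldolase, by 1.12 ± 0.22 and Pfkp, phosphofructokinase, by 0.69 ± 0.16 (adjusted p = 0.11 without DKO Treg 2). Without DKO Treg 2 the count was 3, and without p65KO Treg 2 it was 4. None of 17 cholesterol synthesis genes was called (limma), and Lss (0.45 ± 0.25), Srebf2 (-0.24 ± 0.16) and Fdft1 (0.29 ± 0.20) were among those with the smallest p.

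Other lists held calls in both directions or few. Of 16 effector Treg transcription factors 3 were higher and 1 lower (median 0.48), or 1 and 0 without DKO Treg 1 and 2 and 0 without DKO Treg 2. Pparg, a nuclear receptor of tissue Treg, was 2.49, 1.25 and 2.11 FPKM in p65KO Treg and 31.3 and 16.3 in DKO Treg (3.03 ± 0.33), while Id2 differed by 0.92 ± 0.23 (adjusted p = 0.054 without DKO Treg 1 and 0.12 without DKO Treg 2), Zeb2 by 1.28 ± 0.35 (adjusted p = 0.27 without DKO Treg 1, 0.051 without p65KO Treg 1 and 0.078 without p65KO Treg 2) and Maf by -0.80 ± 0.20 (adjusted p = 0.1 without DKO Treg 1 and 0.059 without DKO Treg 2). Chemokine receptors and homing genes gave 3 higher and 4 lower of 25 (median -0.40). Cxcr5, which leads cells to B cell follicles, was 15.4, 16.5 and 11 against 1.56 and 1.40 FPKM (-2.61 ± 0.33), and Ccr6 was 11.9, 19.6 and 30.2 against 1.71 and 3.06 (-2.61 ± 0.37). Ccr1, a receptor of inflammatory chemokines, was 0.205, 0.383 and 1.05 against 9.38 and 5.26 FPKM (2.42 ± 0.33). Ccr6 and Maf were also the 2 lower genes of the 11 type 17 genes, none of which was higher (median -0.08). Checkpoint and costimulatory receptors gave 2 higher and 2 lower of 16 (median -0.45). Btla, an inhibitory receptor, was 70.4, 46 and 51.1 against 13.3 and 15.7 FPKM (-1.86 ± 0.21), and Havcr2, which encodes the checkpoint TIM-3, was 6.24, 10.1 and 16.5 against 34 and 66.3 (2.12 ± 0.39). Cd200r1 differed by 1.22 ± 0.28 (adjusted p = 0.075 without DKO Treg 1) and Cd96 by -1.93 ± 0.55 (adjusted p = 0.11 without DKO Treg 1, 0.15 without DKO Treg 2, 0.074 without p65KO Treg 1 and 0.086 without p65KO Treg 2). Of 22 genes of proximal T cell receptor signalling Themis, an adaptor of T cell selection, was higher, at 64.3 and 91.9 against 14.5, 11.4 and 7.22 FPKM (2.74 ± 0.45), and Malt1, a paracaspase upstream of NF-kB, was lower (-0.74 ± 0.24; median of the list -0.15). The adjusted p of Malt1 was 0.089 without DKO Treg 1, 0.28 without DKO Treg 2, 0.056 without p65KO Treg 1 and 0.15 without p65KO Treg 2. Of 19 genes of the common gamma chain receptors and their STAT control none was higher and 2 were lower (median -0.19), Il21r (-1.44 ± 0.30) and the STAT inhibitor Socs3 (-1.36 ± 0.33; adjusted p = 0.093 without DKO Treg 1 and 0.053 without DKO Treg 2).

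The fit changed the counts of several of these lists, and of all genes. With the run as a block 3042 of the 11535 genes tested were higher and 2356 lower. Run-block counts of lists, here and above, are to be read beside those totals. The run block gave 9 lower and 2 higher for the common gamma chain list, 8 and 8 for chemokine receptors, 6 lower and 4 higher for both checkpoint receptors and proximal T cell receptor genes, 5 higher and 4 lower for interferon genes, and 3 lower and 2 higher of the cholesterol genes. A fit of the 5 libraries alone, with fewer samples to estimate the spread, called 6 Treg core, 3 early response and 1 naive gene lower. It called 9 cell cycle, 4 histamine and leukotriene, 3 type 2, 3 type 1 and 3 Ifitm genes higher, and none of the glycolysis, NF-kB inhibitor or survival genes.

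**Figure D2:**
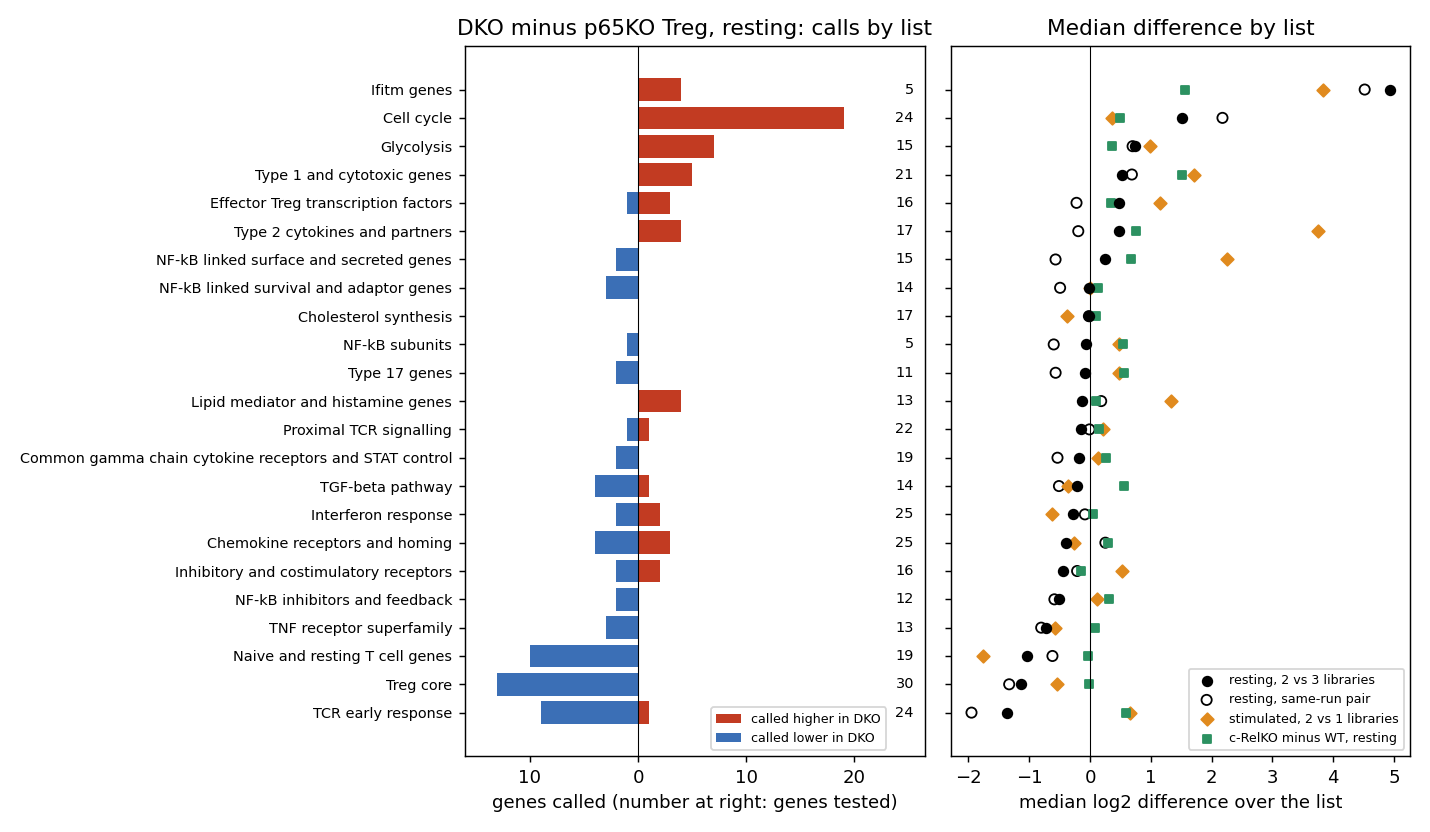
Genes called higher (red) or lower (blue) in resting DKO Treg in each of 23 gene lists, with the number tested at the right edge (left panel), and the median log2 difference of each list (right panel) for the resting comparison, its same-run pair, the stimulated comparison and c-RelKO minus WT Treg. The Ifitm genes have the highest resting median (4.93) and the early response genes of the T cell receptor the lowest (-1.36), and the latter list turns to 0.66 after stimulation.

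Marker genes of other cells were set beside these counts. The summed level of 14 myeloid markers was 359, 317 and 878 FPKM in p65KO Treg 1 to 3 and 152 and 182 in DKO Treg, with none of 12 tested genes called. That of 7 eosinophil markers was 3.5, 3.17 and 3.89 FPKM in p65KO Treg and 6.41 and 122 in DKO Treg 1 and 2, with Epx the one called of 5 tested. The 11 B cell markers summed to 6.21 to 27.9 FPKM in p65KO Treg and 7.03 and 11.8 in DKO Treg (0 of 10 called), and the 8 erythroid markers to 13.3 to 117 and 17.6 and 39.7 (0 of 7 called). Of the 7 markers of type 2 innate lymphoid cells, which also make Il5 and Il13 and of which Gata3, Il1rl1, Klrg1 and Areg are expressed by Treg, Rxrg was listed at 0 in all 5 libraries and Il17rb was 1.10, 1.65 and 0.319 against 2.03 and 1.22 FPKM. The remaining marker, Bmp7, was at least 1 FPKM in each of the 5. The list summed to 166, 238 and 296 FPKM in p65KO Treg and 576 and 204 in DKO Treg, with Klrg1 lower. NK markers summed to 2.4 to 6.63 and to 2.89 and 3.62 FPKM, with Ncr1 the one higher. Klrc1 and Klrk1, 2 of 5 tested markers of CD8 and gamma-delta T cells, were higher (DKO 10.1 and 16.1 against 0.315, 0.454 and 0.388 FPKM and 6.17 and 11.3 against 0.771, 0.212 and 0.231), while Cd8a was 0.0712 and 0.194 against 2.77, 0.507 and 0.0994 FPKM. MHC class II genes summed to 97.2 to 210 FPKM in p65KO and to 461 and 289 in DKO Treg, with Cd74 higher. Of 12 T cell genes Cd2 and Cd5 were lower. The 10 heat shock and dissociation genes summed to 838, 1320 and 1370 FPKM in p65KO Treg and 1540 and 1410 in DKO Treg, with Hspa1a and Hspd1 higher. These calls were few and several were lost with 1 library left out. Without DKO Treg 2 none was left for eosinophil, NK, type 2 innate lymphoid, MHC class II, T cell or heat shock genes, and 1 for CD8 and gamma-delta T cells, while 4 eosinophil genes were higher without DKO Treg 1. What part other cells, sex or handling had in the differences was not tested. Without p65KO Treg 3 and c-RelKO Treg 2, both with transcripts of other cells, 2099 genes were called, and the lists gave 10 lower for Treg core, 12 for naive genes and 7 for early response genes, 15 higher for cell cycle and 6 for type 2 genes. Leaving out DKO Treg 2, with the eosinophil transcripts, gave 3 higher type 2 genes and 4 of the histamine and leukotriene list.

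Stimulation for 3 h engages the T cell receptor and CD28, a route through which NF-kB is released. Stimulated DKO Treg (n = 2) and stimulated p65KO Treg (n = 1) differed in 1824 of 11535 genes (15.8%), 642 higher (5.57%) and 1182 lower (10.2%). Without stimulated DKO Treg 2 the count was 1064. The lone p65KO library was assumed to vary as the other groups do. It held 89.9 FPKM of Ddx3y, while the stimulated DKO libraries held 27.9 and 35.9 FPKM of Xist, so sex and genotype cannot be told apart here. Beside p65KO Treg 3 at rest, the stimulated p65KO library had less Irf4 (78 against 100.9 FPKM) and Tnf (37.9 against 58.3). It had more Cd69 (167 against 142). Stimulated DKO Treg 1 and 2 had 558.5 and 369 FPKM of Irf4, against 113 and 76.8 at rest. Their Tnf was 253 and 662 against 10.7 and 19.1, and their Cd69 100.4 and 102.4 against 44.2 and 30.9. These genes were chosen after their values were seen. Whether the p65KO library responded to stimulation was not tested. Higher genes made up 35.2% of the calls on deposited FPKM and 54% after scaling by size factors, which moved the median over all genes from -0.15 to 0.02. This comparison shares no library with the resting one, but both use the same pooled spread. Each stimulated library follows a resting one of its genotype in number (15 after 14, 30 after 29 and 26 after 25). The labels do not say whether such pairs came from the same cells, so overlaps between the comparisons may not be independent. Genes higher in both numbered 205, which is 20.3% of the resting and 31.9% of the stimulated list, and genes lower in both 499, or 45.4% and 42.2%. A further 41 genes were called in opposite directions.

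Cytokine genes were among those with large differences between the stimulated groups. Il13 was 0.264 FPKM in stimulated p65KO Treg and 11693 and 13077 in stimulated DKO Treg 1 and 2, a difference of 13.26 ± 1.26 (adjusted p = 1.7e-05). Il5 was 0.200 against 4799 and 2527 FPKM (11.50 ± 1.11). Of the 17 type 2 genes 8 were higher and none lower, with a median of 3.75. Chosen after their values were seen, the chemokine gene Ccl1 was 0.379 against 4773 and 4535 FPKM (11.72 ± 1.0), Il4 was 2.51 against 6051 and 5971 FPKM (10.74 ± 1.31), Il3 0 against 2097 and 5224 (11.69 ± 0.85) and Csf2 0.693 against 1018 and 3091 (10.03 ± 0.76). Il3 had not differed at rest, with 0, 0 and 3.15 FPKM in p65KO and 0.806 and 0.753 in DKO Treg. Other T cell cytokines picked in the same way were Il2, at 0.162 against 1237 and 3342 FPKM, Ifng at 7.69 against 5804 and 15417 and Il10 at 22.8 against 547 and 866, all called higher. Type 1 genes gave 7 higher of 21, and histamine and leukotriene genes 7 higher of 13, with none lower in either. Surface and secreted genes linked to NF-kB gave 8 higher and 2 lower of 15 (median 2.26), effector Treg transcription factors 7 higher of 16, type 17 genes 5 higher of 11 and proximal T cell receptor genes 5 higher of 22, with none lower in the last 3.

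Whether the difference itself changed with stimulation was tested by an interaction term, which was called for 461 genes (4%), 251 positive (2.18%) and 210 negative (1.82%). The stimulated p65KO arm of this term is the 1 library, whose spread is borrowed from the other groups. The positive share was 54.4% on deposited FPKM, 76.7% after size factors and 29.7% with the run as a block, so the direction of most calls depends on the fit. The count was 149 without stimulated DKO Treg 2, and 246 and 193 without resting DKO Treg 1 and 2. The EGR genes crossed from lower to higher. Egr3 was 14.9 FPKM in stimulated p65KO Treg and 158 and 130.5 in stimulated DKO Treg, so that a difference of -3.36 at rest became 3.18. Egr2 was 33.5 against 289 and 214 FPKM, and the difference went from -3.03 to 2.86. Egr1 did likewise, from -2.65 to 2.94. Their interaction was 6.54 ± 0.72 for Egr3 (adjusted p = 2.3e-04), 5.89 ± 0.79 for Egr2 and 5.59 ± 0.75 for Egr1. Of the 24 early response genes 8 were higher and 2 lower after stimulation, against 1 and 9 at rest. Il13 also had a larger difference after stimulation (6.51 ± 1.57; adjusted p = 0.036), whereas that of Il5 (3.88 ± 1.38) was not called (adjusted p = 0.14). Ifitm2 kept a difference of 3.98 ± 0.26, smaller than at rest (-1.33 ± 0.33; adjusted p = 0.038).

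Foxp3, the defining gene of Treg, was also lower after stimulation. It was 195 FPKM in stimulated p65KO Treg and 6.34 and 8.31 in stimulated DKO Treg, a difference of -4.56 ± 0.61, and its interaction of -0.67 ± 0.76 was not called (adjusted p = 0.73). Of 30 Treg core genes 9 were lower and 1 higher (median -0.54), and of 19 naive genes 10 were lower and none higher (median -1.76). Cd27 differed by -2.62 ± 0.44 and Lrrc32 by -4.84 ± 1.02. None of the 24 cell cycle genes was called after stimulation (limma), where their median was 0.37; Aurka was 29.6 against 35.6 and 39.8 FPKM. Its interaction (-2.0 ± 0.60) was not called (adjusted p = 0.083), so the resting and stimulated differences of Aurka were not shown to differ.

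**Figure D3:**
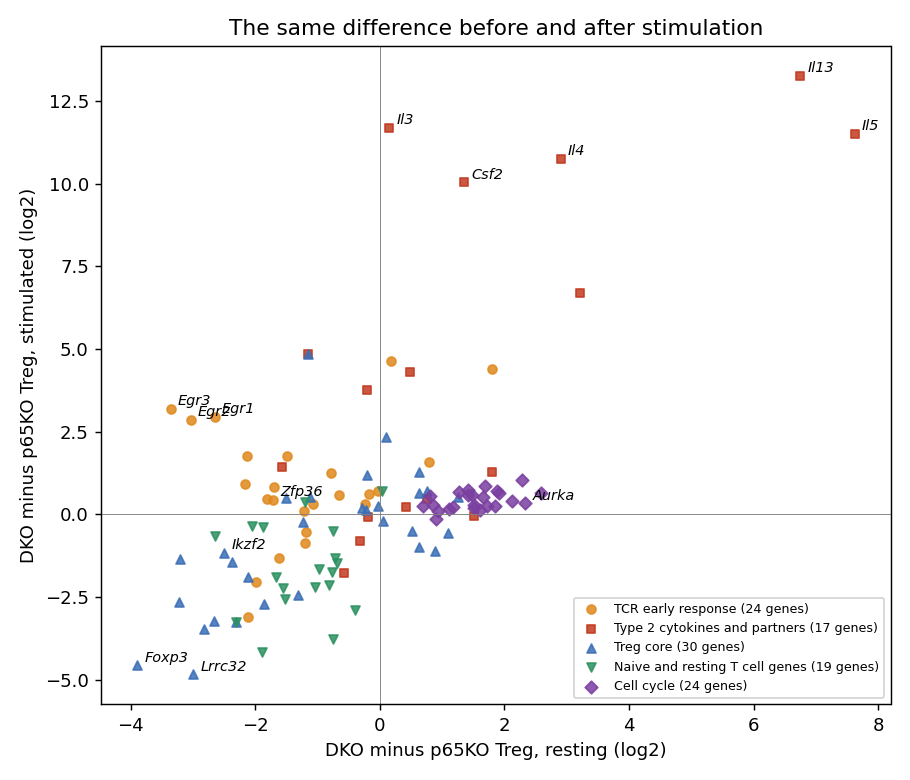
Log2 difference between DKO and p65KO Treg at rest (horizontal axis) and after 3 h of stimulation (vertical axis) for the tested genes of 5 lists, 1 point per gene. Egr1, Egr2 and Egr3 lie at the upper left, lower at rest and higher after stimulation, Il5 and Il13 at the upper right, Foxp3 and Lrrc32 at the lower left, and cell cycle genes right of 0 at a height near 0.

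Loss of c-Rel can also be read with p65 present, as c-RelKO Treg (n = 2) against WT Treg (n = 4). These libraries are shared with neither group above. c-RelKO Treg 2 held Xist (7.18 FPKM) and Ddx3y (36.5 FPKM) together, 13320 FPKM of the haemoglobin gene Hba-a1 and 78 FPKM of the B cell gene Cd79a. The 14 myeloid markers summed to 1900 FPKM in it, 318 in c-RelKO Treg 1 and 113 to 403 in WT Treg. There 1224 genes differed (10.6%), 187 higher (1.62%) and 1037 lower (8.99%), and higher genes were 15.3% of the calls on deposited FPKM and 36% after size factors, which moved the median of all genes from -0.13 to 0.03. Without c-RelKO Treg 1 or 2 the count was 438 or 450. Rel was 27.5, 199.5, 271 and 252 FPKM in WT Treg 1 to 4 and 2.09 and 1.76 in c-RelKO Treg. Genes higher with c-Rel loss both without and with p65 numbered 73, which is 7.23% of the genes higher without p65 and 39% of those higher with p65. Genes lower in both numbered 462, 42% and 44.6%. Opposite calls were made for 7 genes. By list, 2 of 30 Treg core genes were lower with p65 present and none of the 19 naive or 24 early response genes was called, while 8 of 21 type 1 genes were higher and 1 lower. Markers of other lymphocytes moved with that list: those of CD8 and gamma-delta T cells summed to 67.4 and 42.6 FPKM in c-RelKO Treg and 8.66 to 20.9 in WT Treg (2 of 5 tested higher), and those of NK cells to 25.2 and 8.78 against 0.658 to 7.15 (1 of 3 higher). Their part in the type 1 calls was not tested.

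The difference between groups with and without c-Rel changed with p65 in 220 genes (1.91%) by the interaction term, 127 positive (1.1%) and 93 negative (0.806%), and 184 of them were called between DKO and p65KO Treg. The positive share was 57.7% on deposited FPKM and 42% after size factors, which moved the median interaction from 0.15 to 0.00. Single libraries weighed on this count: it was 63 without DKO Treg 1, 86 without DKO Treg 2, 83 without p65KO Treg 2, 341 without p65KO Treg 1, 65 without c-RelKO Treg 2 and 107 without WT Treg 4. With the run as a block it was 4433.

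Foxp3 was among these genes. It was 129, 210.5, 344 and 351 FPKM in WT Treg 1 to 4 and 136 and 254 in c-RelKO Treg, so the groups overlapped and the difference of -0.36 ± 0.43 was not called (adjusted p = 0.64). The interaction was -3.53 ± 0.63 (adjusted p = 0.013). Cd27 was 256, 169.6, 146 and 136 FPKM in WT and 109.7 and 139 in c-RelKO Treg, with an interaction of -3.17 ± 0.45. For Egr3 the values were 18.6, 20.5, 45.5 and 31.2 FPKM in WT and 51.5 and 47.5 in c-RelKO Treg and the interaction was -4.20 ± 0.59, for Egr2 -3.64 ± 0.65 and for Egr1 -3.43 ± 0.62. In these genes the c-RelKO libraries lay within the WT range or close to it, and the DKO libraries were the low ones. Cxcr5 (-3.43 ± 0.45), Ephx1 (-3.94 ± 0.89), Tmem158 (-2.32 ± 0.31) and Mmp9, a matrix protease (-2.95 ± 0.65), were negative as well. Mmp9 differed from the others in that the interaction came with 3.29 and 8.91 FPKM in c-RelKO Treg against 1.78, 0.454, 0.0900 and 0.205 in WT, and with no call between DKO and p65KO Treg (-0.85 ± 0.47). The higher of these values was in c-RelKO Treg 2, where myeloid markers summed to 1900 FPKM. The part of myeloid cells in the Mmp9 level was not tested.

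Several genes with large rises were among the positive ones. Il5 was 0, 0.0418, 1.95 and 0.197 FPKM in WT and 15.8 and 1.63 in c-RelKO Treg, a difference of 2.26 ± 0.78 that was not called (adjusted p = 0.082), and its interaction was 5.36 ± 1.14 (adjusted p = 0.034). Ifitm2 was 9.85, 9.70, 9.61 and 10.2 FPKM in WT and 28.7 and 33.7 in c-RelKO Treg, a difference of 1.57 ± 0.18 that was called, and the interaction was 3.74 ± 0.27 (adjusted p = 5.8e-06). Peg10, an imprinted gene derived from a retrotransposon, was 0, 0.0858, 0.0245 and 0.0938 FPKM in WT, 0.0359 and 0.146 in c-RelKO and 0, 0.0148 and 0.0962 in p65KO Treg and 8.42 and 7.27 in DKO Treg, with an interaction of 3.04 ± 0.18. Cxcl3 (4.81 ± 0.72), Ifitm1 (4.75 ± 1.04), Hrh4 (3.70 ± 0.47), Igfbp7 (3.66 ± 0.52), Cysltr1 (3.11 ± 0.54) and Lgals7 (2.98 ± 0.57) were positive too. For Cxcr6 and Il13 a higher level was called with p65 present as well, 3.06 ± 0.59 and 3.19 ± 0.89. Their interactions of 1.94 ± 0.86 and 3.56 ± 1.29 were not called (adjusted p = 0.25 and 0.16).

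For other genes the difference was large both with and without p65. Neat1, a nuclear long noncoding RNA that builds paraspeckles (chr19:5842302-5845478), was 132, 170.0 and 215 FPKM in p65KO and 13.1 and 29.7 in DKO Treg, and 98, 165, 228 and 168 in WT and 17.1 and 27.2 in c-RelKO Treg. The groups lacking c-Rel were low in both settings and did not overlap the others. Its differences were -3.03 ± 0.40 without p65 and -2.81 ± 0.38 with p65, and the interaction was -0.22 ± 0.56 (adjusted p = 0.86). Malat1, another nuclear noncoding RNA next to Neat1 and chosen after its values were seen, differed by -2.78 ± 0.33 and -2.69 ± 0.31, with an interaction of -0.09 ± 0.45. Rel itself differed by -4.61 ± 0.81 and -5.59 ± 0.77. Ikzf2 was lower in both, -2.50 ± 0.18 and -1.24 ± 0.17, and its interaction of -1.26 ± 0.25 was called (adjusted p = 0.022).

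**Figure D4:**
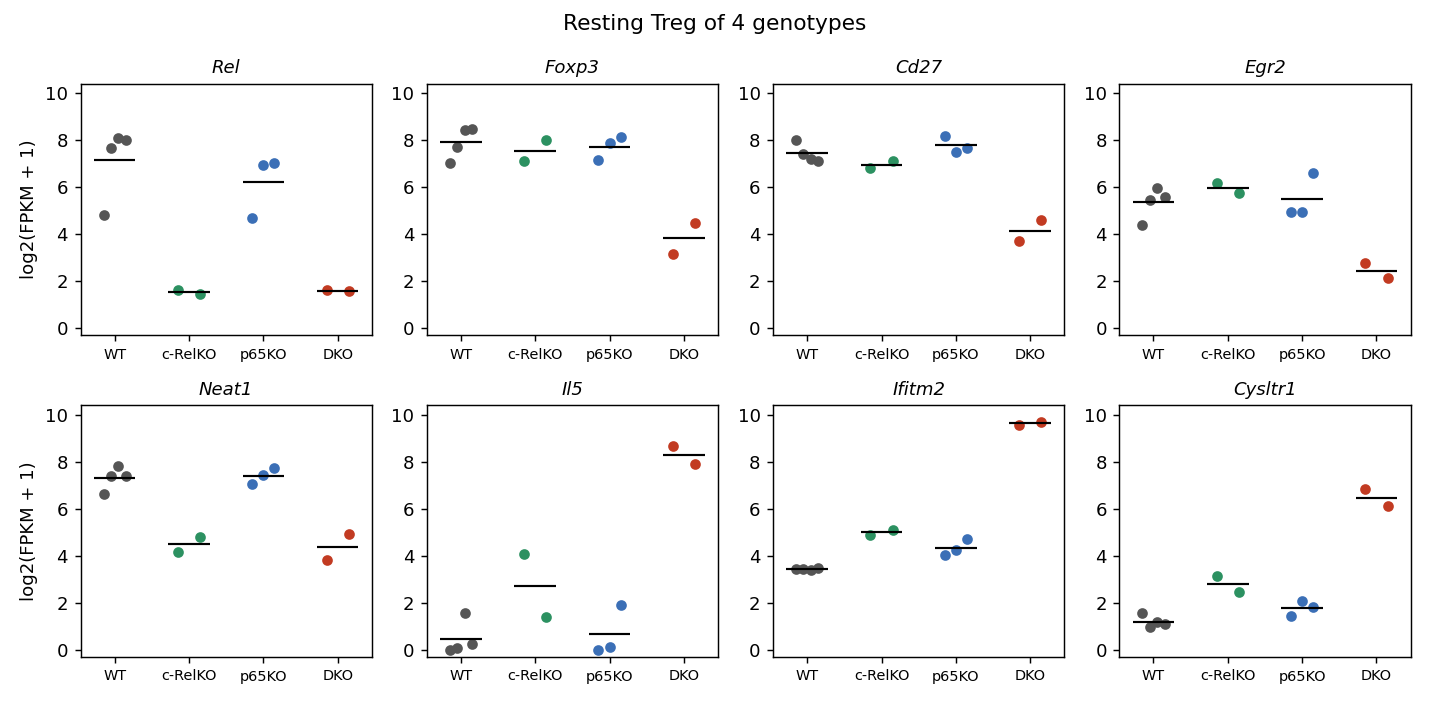
Levels, as log2(FPKM + 1), of 8 genes in the resting Treg libraries of 4 genotypes (WT n = 4, c-RelKO n = 2, p65KO n = 3, DKO n = 2), with 1 point per library and a line at the mean. Rel and Neat1 are low in both genotypes without c-Rel, Foxp3, Cd27 and Egr2 are low in DKO, and Il5, Ifitm2 and Cysltr1 are highest in DKO.

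**Figure D5:**
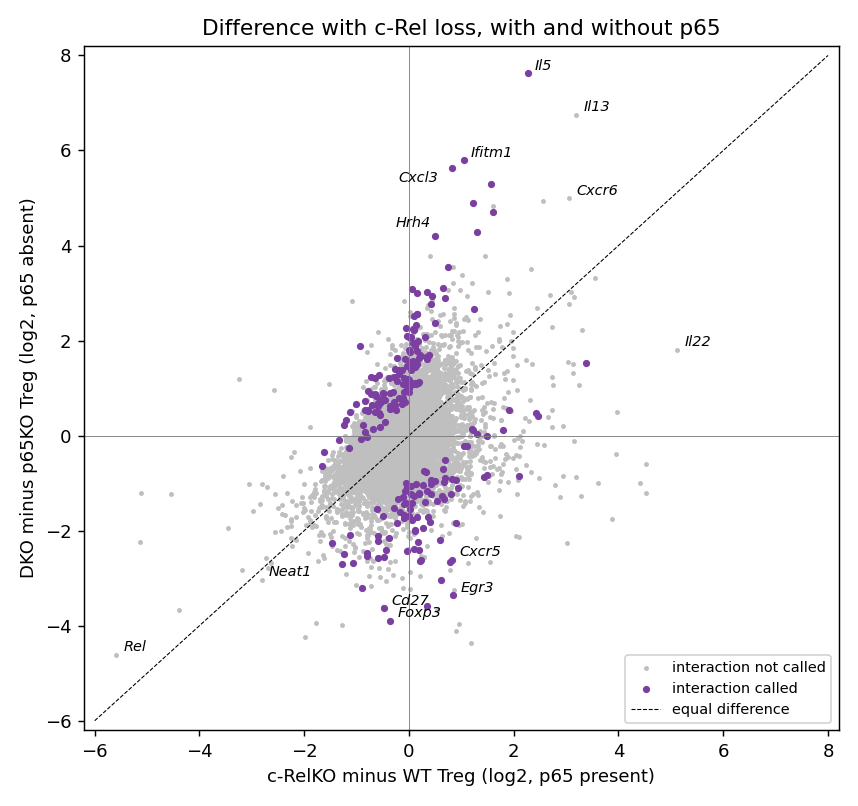
Log2 difference with c-Rel loss when p65 is present (c-RelKO minus WT, horizontal axis) and when it is absent (DKO minus p65KO, vertical axis) for the 11535 genes tested. Purple points are the 220 genes whose interaction was called, the dashed line marks an equal difference, and Rel and Neat1 lie near it while Foxp3, Cd27 and Egr3 lie far below and Il5 far above.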

How the data were processed

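Polyadenylated RNA libraries were made with an Illumina TruSeq kit after column extraction, per the labels' protocols. The authors deposited gene-level FPKM with confidence bounds for each library, per the file headers; bcl2fastq, TopHat, Cufflinks and the mm9 build are named in the submitters' processing notes. Versions, annotation and strand handling: not given in the sources used here. Each file held 23699 entries for 23235 symbols. Symbols with an entry not marked OK (247) were left out, FPKM of the 181 kept symbols on several entries were summed, and 22988 symbols remained. Locus starts were raised by 1 to a 1-based count.

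Differences were tested with limma 3.58.1 (R 4.3.3, with a mean-variance trend) on log2(FPKM + 1), with a pseudocount of 1, 1 mean for each of 10 groups over 21 libraries and 11 residual degrees of freedom; 4 libraries treated with TAT-Cre were not used. Genes needed at least 1 FPKM in at least 2 libraries. P-values were adjusted by Benjamini-Hochberg over all 11535 genes tested, with a threshold of 0.05. Because the deposited FPKM hold no read counts, no count model was run. The fit was tested on simulated data with independent noise and no effects of run, sex or other cells. That test cannot show how such effects act on the counts given here.

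Groups came from titles and genotype labels. The runs are stretches of consecutive library numbers (1 to 2, 6 to 7, 10 to 16 and 21 to 30), which the labels do not call batches. The members and the gene lists were chosen with earlier results of these data known. Named are Rel, Rela and Foxp3, the 14 largest rises and falls among called, non-overlapping genes whose higher group averaged 5 FPKM or more, up to 4 genes of each list with the smallest p, and the 8 most positive and negative interactions with p65. The rule passed over predicted genes, clones, receptor segments and small RNAs. Some genes that the rule names are not reported here. Any other gene named was chosen after its values were seen. Alternatives covered scaling, pseudocount, filter, trend, the libraries in the fit, a block for run or replicate number, and leaving out libraries.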

Additional observations from a re-analysis of the deposited data

Results flagged for a closer look

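By the interaction term of limma, the difference between groups with and without c-Rel changed with p65 in 220 genes and with stimulation in 461 genes. These counts carry the single-library dependence given with the results.

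Named genes with a larger rise, or a rise alone, without p65 were Il5 (interaction 5.36 on the log2 scale), Cxcl3 (4.81), Ifitm1 (4.75), Ifitm2 (3.74), Hrh4 (3.70), Igfbp7 (3.66), Cysltr1 (3.11), Peg10 (3.04) and Lgals7 (2.98). Named genes with a negative interaction were Egr3 (-4.20), Ephx1 (-3.94), Egr2 (-3.64), Foxp3 (-3.53), Cxcr5 (-3.43), Egr1 (-3.43), Cd27 (-3.17), Mmp9 (-2.95) and Tmem158 (-2.32). These flags, and those for stimulation below, cover 33 genes: Rel, Rela, Foxp3, the largest rises and falls and the most extreme interactions. Genes named only through their lists were not scanned, among them Ikzf2, whose called interaction is given with the results.

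The difference between DKO and p65KO Treg moved up on stimulation for Egr3 (6.54), Il13 (6.51), Egr2 (5.89) and Egr1 (5.59), and down for Ifitm2 (-1.33) and Peg10 (-0.90). The last 2 genes were higher in DKO Treg at rest and after stimulation. The stimulated p65KO side of this comparison is a single library.

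Among 33 genes checked, 1 of the 4 WT Treg libraries stood apart from the others for 4 genes: Il5 (1.95 FPKM in WT Treg 3), Il13 (4.5 FPKM in WT Treg 3), Ltb4r1 (3.81 FPKM) and Cxcr5 (28.7 FPKM in WT Treg 1). Chance flags about 1 in 20 such groups. For Il5 and Il13 the level in that library was far below both DKO libraries.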

How the results depend on the processing

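Of the values of named genes over all settings, 1502 kept their direction and side of the threshold, 119 lost the call, 43 gained one and 17 turned sign. The resting count of 2110 was 2261 with size factors, 2115 and 1998 with pseudocounts of 0.1 and 5, 2299 without a filter, 1760 with a 5 FPKM filter and 2087 without the trend. It was 355 in a fit of the 5 libraries alone, where fewer samples set the spread. With the run as a block, the counts were 5398 (resting), 5286 (stimulated), 4804 (c-RelKO minus WT), 4433 (interaction with p65) and 3905 (interaction with stimulation); the cause was not tested. With the replicate block the resting count was 3661. Groups share the numbers 1 and 2 only, nothing in the labels ties same-numbered libraries, and the correlation of deviations was -0.101 for the number 1 pair and -0.338 for the number 2 pair.

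Leaving out 1 library at a time gave 952 to 2262 genes in the resting comparison, 1064 to 1272 in the stimulated one, 438 to 1256 for c-RelKO minus WT, 63 to 341 for the interaction with p65 and 149 to 542 for that with stimulation. 3 alternatives were added after seeing the data. Without p65KO Treg 3 and c-RelKO Treg 2 the counts were 2099, 1763, 457, 109 and 350 in that order; without run 1 they were 3148, 2970, 1574, 939 and 1335; with the run block and without p65KO Treg 3 and c-RelKO Treg 2 they were 5171, 5946, 4735, 3955 and 4070.

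Values that turned sign were of genes not called in the resting comparison. With the run as a block Nfkb1 was -0.053, Relb -0.34 and Jak3 0.18. With the replicate block Rela was 0.11 and Nfkb2 0.20. Leaving out 1 library gave -0.28 to 0.15 for Rela, -0.069 to 0.56 for Relb and -0.39 to 0.21 for Nfkb2. Without p65KO Treg 3 and c-RelKO Treg 2, Rela was 0.045 and Nfkb2 0.21. With the run block and without those 2 libraries Nfkb1 was -0.21, Relb -0.49, Cd3e 0.27, Jak3 0.26 and Mmp9 0.42. The FPKM files hold no read counts, so the precision of low values is unknown.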
